A study of Homo sapiens with 32 samples.

Results

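AREG, GFRA1 and ERBB2 encode a ligand, a coreceptor and a receptor of growth factor signalling in breast epithelium. Each was read by 1 probe, chosen because its gene symbol stands in the list of regulated genes that the study drew from these same arrays. They are 3 of 253 named genes and 3 of 333 named probes, among 9912 probes on the array. Since the study picked those 333 probes for their change on these arrays, the direction of a member is not independent evidence. The study also clustered them by their course over the days. It placed AREG and GFRA1 in its set 5 and ERBB2 in its set 6, which it describes by the largest fall and rise at day 14. A late change of a member is therefore not independent evidence either. The arrays measure mRNA, so receptor activity is not seen here.

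The tumors were ZR-75-1 xenografts, that is, tumors grown from ZR-75-1, a human line of estrogen receptor-positive breast carcinoma cells, in the flanks of female nu/nu mice. All animals received E2 (17β-estradiol), the control animals included. The treated animals also received tamoxifen, a drug that competes with E2 at the estrogen receptor, as 2.5 mg released over 60 days. Treated tumors were collected at day 1 (4 tumors from 2 mice), day 2 (2 tumors from 2 mice), day 4 (4 tumors from 3 mice), day 7 (4 tumors from 3 mice) and day 14 (2 tumors from 2 mice), which gave 16 tumors from 12 mice. The control was a single pool of RNA from E2-only xenografts of days 0, 1, 2 and 4. It holds no control tumor of day 7 or 14, so at these days tamoxifen and time in the animal cannot be told apart.

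Each tumor was hybridized against the control pool on a forward array and on a dye-swap array, and the log2 ratio of a tumor is the mean of both. A negative ratio means less mRNA in the treated tumor than in the pool, and a ratio of -1 means 2-fold less. The scanner columns do not name the dyes. The direction is therefore a likely one, taken from its match with the deposited ratio table on all 31 arrays used, and every sign would turn if the scanner's channels followed the order of the sample labels. In the direction used, TFF1 and TFF3 were at -1.41 and -1.25 and IER3 at 1.01, averaged over the days. The paper reports TFF1 and TFF3 as repressed and IER3 as induced by tamoxifen, and a fall of TFF3 protein in the xenografts. As tumors hold several cell types, fewer cells of a type and less RNA per cell cannot be told apart.

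Amphiregulin, the product of AREG, is made as a membrane-bound precursor, is shed, and binds the EGF receptor (EGFR). It is a known estrogen-induced gene of the mammary epithelium, where it acts in duct growth. GFRA1 encodes a lipid-anchored coreceptor that binds GDNF and presents it to the receptor tyrosine kinase RET. ERBB2, also called HER2, has no known ligand of its own and signals by pairing with EGFR, ERBB3 or ERBB4. In cells with the estrogen receptor, estrogen is known to lower ERBB2 mRNA.

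The RefSeq windows around the starts of these genes are shown because AREG and GFRA1 shared a direction opposite to ERBB2 and estrogen receptor sites are the usual question about such genes. AREG lies at chr4:74445136-74455005, GFRA1 at chr10:116056925-116274705 and ERBB2 at chr17:39688094-39728658 (GRCh38.p14). Each window runs from 250 bases before to 50 bases after a start, 5′ to 3′ on the gene's own strand. For GFRA1, the outermost of 4 RefSeq starts is printed. AREG and ERBB2 had 1 listed start each, at the outer end of the gene's span. Any start farther inside that span, which may be the main one, was not searched. The windows are chr4:74444886-74445185 (plus strand), chr10:116274656-116274955 (minus strand) and chr17:39687844-39688143 (plus strand). Capitals mark the letters TGACGTCA, the cyclic AMP response element.
AREG: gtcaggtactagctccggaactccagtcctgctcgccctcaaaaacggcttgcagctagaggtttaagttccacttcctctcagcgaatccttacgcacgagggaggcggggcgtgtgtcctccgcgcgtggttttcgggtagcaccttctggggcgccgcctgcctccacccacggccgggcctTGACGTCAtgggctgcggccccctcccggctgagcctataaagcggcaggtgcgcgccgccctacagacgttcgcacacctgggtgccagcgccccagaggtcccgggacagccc
GFRA1: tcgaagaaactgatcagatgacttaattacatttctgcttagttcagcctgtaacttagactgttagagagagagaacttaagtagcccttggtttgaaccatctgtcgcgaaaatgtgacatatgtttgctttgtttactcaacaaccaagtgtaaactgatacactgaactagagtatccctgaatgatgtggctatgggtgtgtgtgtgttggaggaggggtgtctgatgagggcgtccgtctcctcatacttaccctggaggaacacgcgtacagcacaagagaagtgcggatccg
ERBB2: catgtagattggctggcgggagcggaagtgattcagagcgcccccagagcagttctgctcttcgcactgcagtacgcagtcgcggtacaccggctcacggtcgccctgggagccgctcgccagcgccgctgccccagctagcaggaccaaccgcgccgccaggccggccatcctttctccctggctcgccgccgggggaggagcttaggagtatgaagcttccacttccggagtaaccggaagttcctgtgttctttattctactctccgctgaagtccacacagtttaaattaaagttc
The letters of the full estrogen response element (GGTCA, any 3 bases, then TGACC) were in none of the 6 windows of these genes on either strand, and 0.057% of all 35116 RefSeq windows of 300 bases held them. The arm GGTCA alone, or TGACC on the other strand, was also in none, against 37.4% of all windows. TGACGTCA, which reads alike on both strands, stood once in the AREG window, at -65 to -58 from the start, and in none of the other 5 windows. It was in 1.85% of all windows, and it was searched for after the sequence had been read. These are descriptions of letters in short windows, and sites farther from a start were not searched.

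Some facts about the arrays touch the values that follow. The dye-swap array titled day 4 replicate 4, whose source label names the tumor of day 4 replicate 3, nearly copied another tumor's array, the forward one of day 4 replicate 2, with a correlation of 0.980 between their ratios (next highest 0.790, own tumor's forward array 0.623). That array was left out, so day 4 replicate 3 rests on its forward array alone. The pool channel alone, with the 3 members left out, split the 32 arrays into a set of 22 and a set of 10, and 200 of 9912 probes (2.02%) differed between the sets by over 2 on the log2 scale without overlap. AREG was 1 of the 6 named probes among these, and GFRA1 and ERBB2 were not. Finally, the forward and dye-swap arrays of the same tumors gave unlike ratios for ERBB2 and AREG, which is described with each gene.

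AREG was below the control pool in all 16 treated tumors. At day 1 the log2 ratios of replicates 1 to 4 were -0.09, -0.31, -0.68 and -0.77. At day 2 they were -0.20 and -0.71, and at day 4 (replicates 1, 2, 3 and 5) -0.63, -0.31, -0.10 and -0.94. As tumor values, days 1, 2 and 4 covered almost the same range, though these values mix bright and dim spots in shares that differ by day, as described below. At day 7 the ratios of replicates 1 to 4 were -0.45, -0.67, -0.41 and -1.27. At day 14 they were -1.19 and -0.99, so that both day 14 tumors were lower than every earlier tumor except day 7 replicate 4. The means were -0.46 ± 0.32 (SD, n = 4) at day 1, -0.46 ± 0.36 (n = 2) at day 2, -0.50 ± 0.37 (n = 4) at day 4, -0.70 ± 0.40 (n = 4) at day 7 and -1.09 ± 0.14 (n = 2) at day 14.

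Averaged over the 5 days, AREG fell by 0.64 on the log2 scale (SE 0.08), a level in treated tumors of 0.641 times that of the control pool (limma adjusted p = 2.39e-05). In that comparison 21.6% of the 9912 probes passed an adjusted p of 0.05, 11.4% in the lower direction, so a call by itself does not set AREG apart from many other probes. By day, AREG passed at day 14 (adjusted p = 0.00526, where 6.2% of probes passed) and at day 7 (adjusted p = 0.0422, where 0.736% passed). In single arrays with a dye term the day 14 call was just lost (-1.09, adjusted p = 0.0501), and on dye swaps alone the day 14 value was 0.15 (adjusted p = 0.847). Without either day 14 tumor the day 14 call was lost (-0.99 and -1.19, adjusted p = 0.159 and 0.114). The day 7 call was lost in 11 of the 16 fits that leave out 1 tumor (day 1 replicates 1 to 3, day 4 replicates 1 and 2, and each tumor of days 7 and 14), with the highest adjusted p, 0.238, at -0.71 without day 7 replicate 2. It was also lost in 9 of 20 other settings, among them 1 mean per mouse (-0.65, adjusted p = 0.162) and the authors' table (-0.49, adjusted p = 0.171). Days 1, 2 and 4 did not pass (adjusted p = 0.0812, 0.349 and 0.125, where 6.6%, 0.777% and 1.07% of probes passed). Day 1 passed in 4 of 20 other settings, among them the authors' table (-0.43, adjusted p = 0.0270), and without day 4 replicate 3 (adjusted p = 0.0477). Day 4 passed in 3 of 20, among them the authors' table (-0.61, adjusted p = 0.0249), and day 2 passed in none. AREG at day 14 minus its mean over days 1 to 7 was -0.56 (95% confidence interval -1.06 to -0.07), with an adjusted p of 0.340.

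**Figure D1:**
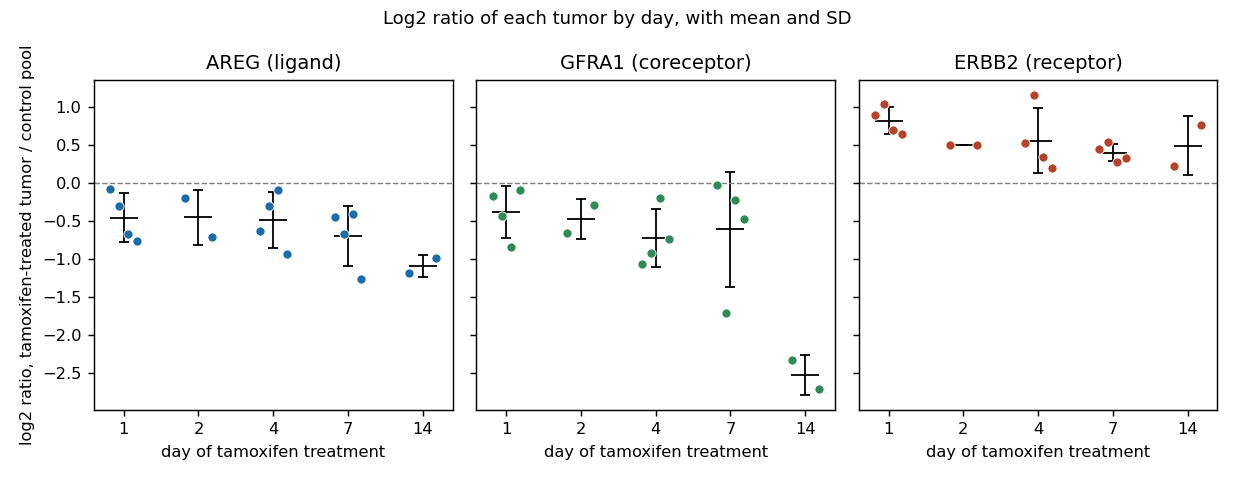
Log2 ratio of treated tumor over control pool for AREG, GFRA1 and ERBB2 in each of the 16 tumors (points) by day of tamoxifen treatment, with the mean and SD of each day in black and the control pool as a dashed line at 0. All AREG and GFRA1 points lie below 0, all ERBB2 points lie above it, and GFRA1 at day 14 (-2.34 and -2.71) lies below every other GFRA1 point.

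The AREG values divide by array set. In the set of 22 the AREG spot was bright, with a pool signal 13.1 to 79.7 times the local background (median 32.0, 21 usable arrays). In the set of 10 it was dim, at 2.03 to 5.46 times background (median 3.17). After centring, the pool signal of AREG differed between the sets by -3.17 on the log2 scale, against -0.43 for GFRA1 and 0.09 for ERBB2. The ratios followed the same division. On the 21 bright arrays AREG had a median ratio of -0.88, with 19 below 0. By day the bright median was -0.47 at day 1 (7 arrays), -1.11 at day 2 (1 array) and -1.12 at day 4 (5 arrays). It was -0.84 at day 7 (6 arrays) and -2.34 at day 14 (2 arrays). On the 9 dim arrays in use it had a median of -0.03 and a range of -0.32 to 0.52, with 5 below 0.

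At day 14 the split was widest. The bright forward arrays of the 2 tumors gave AREG ratios of -2.39 and -2.28. Their dim dye-swap arrays gave 0.00 and 0.30. The mean of -1.09 therefore lies between readings that do not overlap. In a fit to the 22 arrays alone with a term for dye, chosen after the division was seen, AREG averaged -1.15 over the days (SE 0.12, adjusted p = 8.07e-07) and -2.15 at day 14 (SE 0.31, adjusted p = 3.41e-04). The orientations differed within the set of 22 as well. In the 6 tumors with both arrays in the set of 22, the forward ratio of AREG was lower than the dye-swap ratio in all 6, by 0.28 to 0.77. The AREG spot of day 2 replicate 1 was marked 0 by the scanner on its dye-swap array and was not used there, so that tumor's value rests on 1 dim forward array, and day 2 has only 1 bright AREG reading (-1.11, replicate 2).

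**Figure D2:**
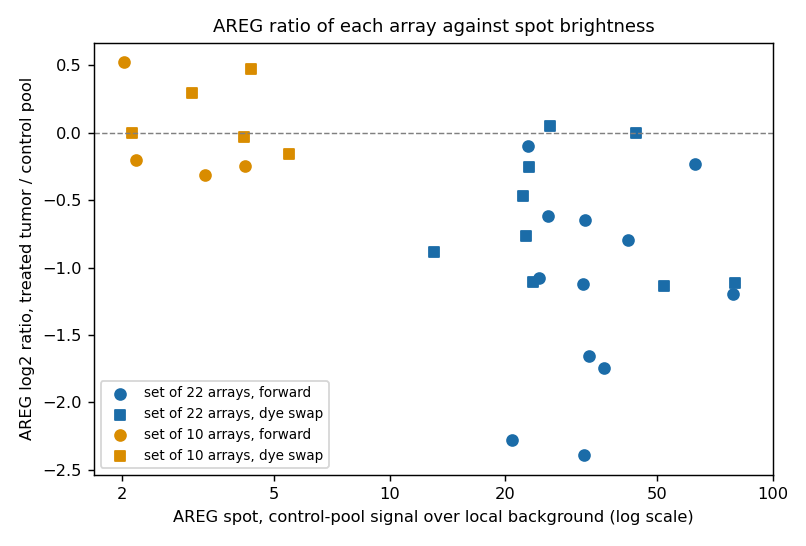
AREG log2 ratio of each usable array against the brightness of its spot in the control-pool channel (log axis, in multiples of local background), with the sets of 22 and 10 arrays in blue and orange and the dye orientations as circles and squares. The 9 dim arrays lie between -0.32 and 0.52, and the 21 bright arrays reach down to -2.39.

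GFRA1 was also below the pool in all 16 tumors, with a step at day 14. At day 1 the log2 ratios of replicates 1 to 4 were -0.17, -0.43, -0.85 and -0.09. At day 2 they were -0.67 and -0.29, and at day 4 (replicates 1, 2, 3 and 5) -1.07, -0.92, -0.20 and -0.74. Days 1, 2 and 4 overlapped. At day 7 replicates 1, 3 and 4 stood at -0.03, -0.23 and -0.48 while replicate 2 stood at -1.72, the lowest value before day 14. At day 14 the ratios were -2.34 and -2.71, below all 14 earlier tumors. The means were -0.39 ± 0.34 (SD, n = 4) at day 1, -0.48 ± 0.26 (n = 2) at day 2, -0.73 ± 0.38 (n = 4) at day 4, -0.62 ± 0.76 (n = 4) at day 7 and -2.53 ± 0.26 (n = 2) at day 14.

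Over the 5 days GFRA1 fell by 0.95 (SE 0.11), to 0.518 times the pool (adjusted p = 9.23e-06). At day 14 it was at 0.174 times the pool (adjusted p = 7.68e-05), and no earlier day passed by itself (adjusted p = 0.301, 0.468, 0.0969 and 0.224 at days 1, 2, 4 and 7). In single arrays with a dye term days 4 and 7 passed (-0.81 and -0.62, adjusted p = 0.00373 and 0.0198). Day 4 also passed on the 22 arrays with a dye term (-0.80, adjusted p = 0.0484) and without day 7 replicate 2 (-0.73, adjusted p = 0.0223). Day 1 passed in a fit to its own tumors (-0.39, adjusted p = 0.0361). Day 14 minus the mean of days 1 to 7 was -1.97 (SE 0.31, 95% confidence interval -2.63 to -1.32, adjusted p = 0.00791). In that contrast 0.343% of probes passed, 14 of them lower (0.141%) and 20 higher (0.202%). The contrast kept its size but not its call when either day 14 tumor was left out (-2.16 without replicate 1, adjusted p = 0.0716, and -1.79 without replicate 2, adjusted p = 0.345). Day 14 minus day 7 alone was -1.91 (adjusted p = 0.0546, where 8 probes passed). The F-test over the 5 days gave an adjusted p of 0.102 (8 probes passed, 0.0807%). Without day 7 replicate 2, the low tumor of its day, the F-test gave an adjusted p of 0.00343.

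GFRA1 was the member whose arrays differed least. Its forward and dye-swap means were -0.76 (SD 0.79, n = 16) and -0.90 (SD 0.84, n = 15). Within a tumor, the forward minus the dye-swap ratio had a mean of 0.10, in which gaps of both signs offset each other. In size the gap had a median of 0.13 and was at most 0.49. Of all probes, 20.2% had a mean gap smaller in size. At day 14 the forward arrays gave -2.26 and -2.61 and the dye swaps -2.42 and -2.82. The median pool signal of the spot was 20.4 times background in the set of 22 and 20.7 in the set of 10. At day 14 the tumor signal was lower, 4.49 and 4.07 times background on the forward arrays and 3.08 and 3.81 times on the dye swaps, within the range that the AREG spot had in the set of 10. The pool signal of the same spots was 19.0 and 14.9 times background on the forward arrays and 5.24 and 14.2 times on the dye swaps. Fits to forward arrays alone and to dye swaps alone gave day 14 contrasts of -1.92 and -1.97.

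ERBB2 was above the pool in all 16 tumors. At day 1 the log2 ratios of replicates 1 to 4 were 0.89, 1.04, 0.70 and 0.64. At day 2 they were 0.49 in both tumors, and at day 4 (replicates 1, 2, 3 and 5) 0.52, 1.15, 0.34 and 0.20. All 4 day 1 tumors were above all others except day 4 replicate 2 and day 14 replicate 2. At day 7 the ratios of replicates 1 to 4 were 0.44, 0.53, 0.27 and 0.33. At day 14 they were 0.21 and 0.76, within the range of the earlier tumors (0.20 to 1.15). The means were 0.81 ± 0.18 (SD, n = 4) at day 1, 0.49 ± 0.00 (n = 2) at day 2, 0.55 ± 0.42 (n = 4) at day 4, 0.39 ± 0.12 (n = 4) at day 7 and 0.49 ± 0.39 (n = 2) at day 14.

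Over the 5 days ERBB2 rose by 0.55 (SE 0.07), to 1.46 times the pool (adjusted p = 1.78e-05), where 10.2% of all probes rose. By day it passed at day 1 (1.76 times the pool, adjusted p = 0.00169, where 6.6% of probes passed) and at day 4 (adjusted p = 0.0486, where 1.07% passed). The day 1 call was lost with 1 mean per mouse (0.81, adjusted p = 0.0684) and on dye swaps alone (0.22, adjusted p = 0.504). The day 4 call was lost in 9 of 20 other settings, among them 1 mean per mouse (0.46, adjusted p = 0.149) and the doubtful array used as labelled (0.28, adjusted p = 0.999). It was also lost on leaving out any of the 11 tumors named for AREG at day 7, with the highest adjusted p, 0.212, at 0.35 without day 4 replicate 2. Days 2, 7 and 14 did not pass (adjusted p = 0.216, 0.202 and 0.127). Day 14 passed in 4 of 20 other settings, among them the authors' table (0.60, adjusted p = 0.0202), and without day 4 replicate 2 (adjusted p = 0.0375). Days 2 and 7 passed on forward arrays alone (0.99 and 0.79, adjusted p = 0.0416 and 0.0109). No difference between days passed. Day 14 minus days 1 to 7 was -0.08 (95% confidence interval -0.48 to 0.33, adjusted p = 0.924), and it was 0.20 without day 14 replicate 1. The largest step between neighbouring days, day 2 minus day 1, was -0.32 (95% confidence interval -0.79 to 0.14, adjusted p = 0.763).

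The size of the ERBB2 value depended on dye orientation. Forward arrays had a mean of 1.01 (SD 0.41) with 16 of 16 above 0. Dye-swap arrays had a mean of 0.10 (SD 0.31), with 10 above 0 and 5 below. The forward ratio was higher in 15 of 15 tumors with both arrays, by a mean of 0.95, and 98.2% of all probes had a smaller mean gap (median 0.247 in size). The gap of a tumor ranged from 0.49 to 1.86. The value of 0.55 averages both orientations, and whether the gap is a dye effect of equal size on both was not tested. Day 4 replicate 3 entered with its forward array alone. In a fit to dye swaps alone ERBB2 was at 0.084 over the 5 days (SE 0.09, adjusted p = 0.499), and in a fit to forward arrays alone at 1.00. The pool signal of ERBB2 was at least 10.3 times background in both array sets.

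**Figure D3:**
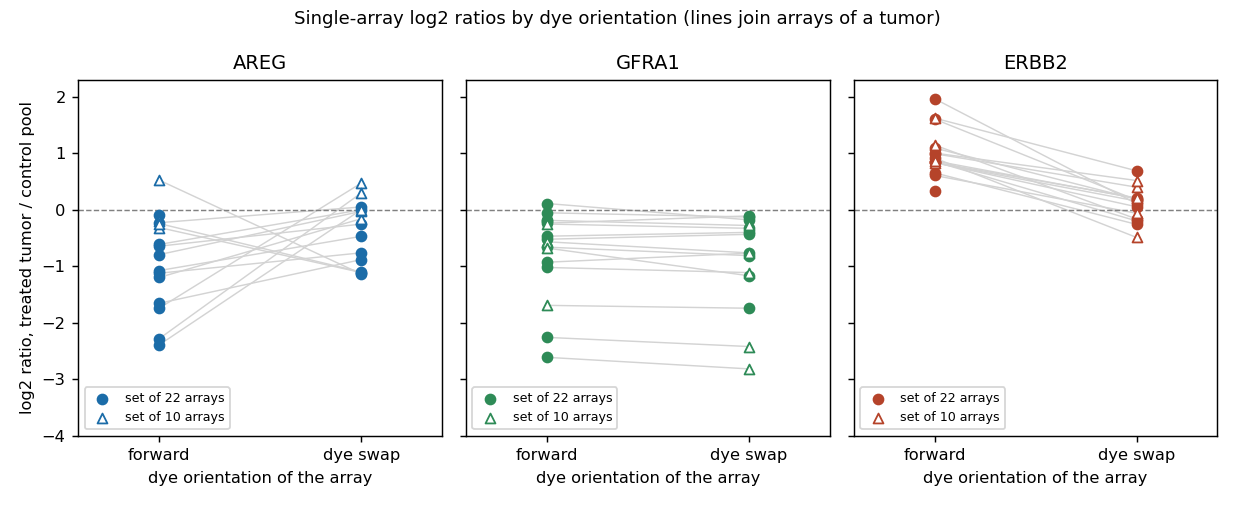
Log2 ratio of treated tumor over control pool on each array, forward arrays left and dye swaps right, with grey lines joining the arrays of a tumor, filled circles for the set of 22 arrays and open triangles for the set of 10. GFRA1 lines are nearly level, ERBB2 falls on every line with a mean gap of 0.95, and the open AREG triangles lie near 0 on either side.

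The receptor and its ligand or coreceptor thus stood on opposite sides of the pool in each tumor, which the choice of members in part fixes and for which no test is given. Day 4 replicate 3, at 0.34 for ERBB2 and -0.10 for AREG, rests on a forward array alone. In tumors with both arrays, the forward minus the dye-swap ratio had a mean of 0.95 for ERBB2. For AREG it was -0.50 where both arrays were in the set of 22. The sides of ERBB2 and AREG in day 4 replicate 3 are therefore not secure. The difference ERBB2 minus AREG ranged from 0.43 to 1.75 over the 16 tumors (median 1.20, mean 1.17, SD 0.36). By day its mean was 1.28, 0.95, 1.05, 1.09 and 1.58 at days 1, 2, 4, 7 and 14. ERBB2 minus GFRA1 ranged from 0.48 to 3.47 (median 1.11). Its day means were 1.20, 0.97, 1.29, 1.01 and 3.01, and both day 14 tumors (2.55 and 3.47) lay above the other 14. At day 14 the mean of GFRA1 was -2.53 and that of ERBB2 0.49. AREG minus GFRA1 was above 0 in 10 of 16 tumors, and the lowest and highest values were -0.79 and 1.72.

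**Figure D4:**
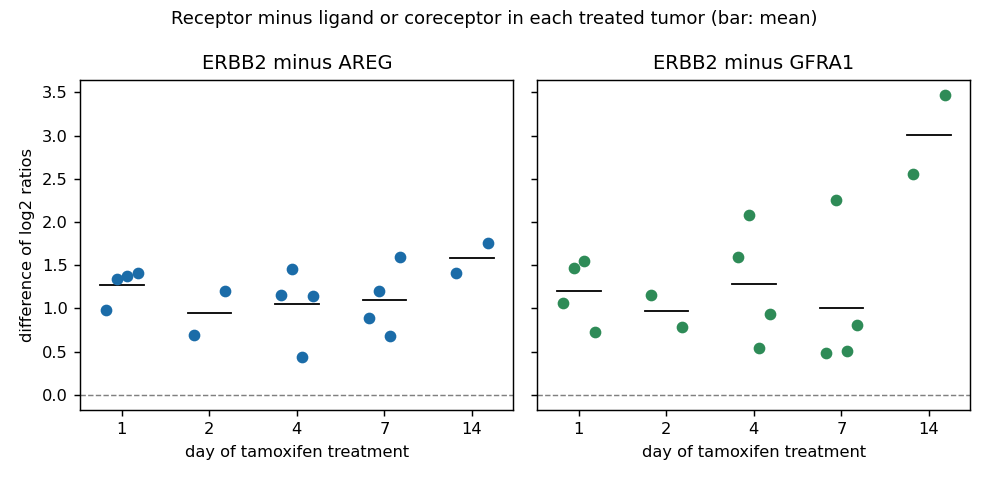
ERBB2 log2 ratio minus that of AREG (left) and of GFRA1 (right) in each treated tumor by day of tamoxifen treatment, with a bar at the mean of each day and a dashed line at 0. All points lie above 0, and the day 14 points of ERBB2 minus GFRA1 (2.55 and 3.47) lie above those of all other days.

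Across the 12 mice, with 1 mean per mouse, AREG and GFRA1 had a Pearson r of 0.63 (permutation p = 0.0275, 0.0823 adjusted over the 3 pairs) and a Spearman rho of 0.64 (permutation p = 0.0296, 0.0888 adjusted). Without the 2 mice farthest from the median AREG value, of days 4 and 14, r was 0.45. On forward arrays alone r was 0.71 (n = 12), on dye swaps alone -0.35 (n = 10) and on the 22 arrays 0.87 (n = 11). The relation therefore did not hold in each kind of array, and it does not pass after adjustment. The dye swaps include 5 dim AREG arrays, among them both of day 14 (AREG 0.00 and 0.30, GFRA1 -2.42 and -2.82). Their part in the dye-swap r was not tested. AREG and ERBB2 had an r of 0.36 (permutation p = 0.245, adjusted p = 0.367, rho 0.35 with permutation p = 0.269), and 0.43 without the same 2 mice. GFRA1 and ERBB2 had an r of -0.04 (permutation p = 0.901, adjusted p = 0.901, rho -0.13 with permutation p = 0.683), and -0.12 without the 2 mice farthest from the median GFRA1 value, both of day 14. These mice belong to 5 days, so a relation can come with the days.

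Among the named genes, those most like each member over the 16 tumors were found by Pearson r as a description. Nearest to AREG were IRS1 (r = 0.757), an adaptor of insulin and IGF1 receptors, the secreted semaphorin SEMA3B (0.660) and DTNA (0.652), a member of the dystrophin complex. When only the 22 arrays were used, they were PLOD2 (0.870), GNG4 (0.858) and GFRA1 (0.838), so none of the first 3 stayed. Nearest to GFRA1 were MAPT (0.881), the microtubule protein tau, the membrane protein PLP2 (0.880) and TFF3 (0.827), a secreted trefoil peptide. PLP2 led there on the 22 arrays too (0.916). Nearest to ERBB2 were DDX17 (0.838), an RNA helicase, the nuclear pore protein TPR (0.834) and TM4SF4 (0.818). On the 22 arrays they were CHD3 (0.839), CLDN4 (0.833) and NUMA1 (0.733). CLDN4 has a dye gap like that of ERBB2, with 5-day means of 1.16 on forward arrays and -0.03 on dye swaps, and the 22 arrays hold the orientations in unequal shares by day. The tumors share the pool and the array sets.

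Other genes of the pathways are seen here only where the study's list named a probe, which was so for 17 of 99 listed genes, the members included. The other 82 genes may be among the unnamed probes. Of the 17 genes 15 passed in the 5-day mean, 8 higher and 7 lower. Since the study named probes that changed on these arrays, 302 of the 333 named probes (90.7%) passed there, against 21.6% of all probes, and the counts that follow are to be read against that share. Of 4 ERBB receptors, ERBB2 and ERBB3 were named and both rose. ERBB3, which binds neuregulins and pairs with ERBB2, had a 5-day mean of 0.30 (SE 0.06, adjusted p = 7.98e-04), with 13 of 16 tumors above 0. Its highest day mean was 0.69 at day 14 (adjusted p = 0.0100). Of 11 ERBB ligands only AREG was named, and of 9 GDNF family ligands and receptors only GFRA1. EGFR, the receptor of amphiregulin, and RET, the partner of GFRA1, had no named probe.

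GRB7, an adaptor that binds the ERBB2 tail and lies next to ERBB2 (chr17:39737938-39747285), rose along with it. It was above 0 in 16 of 16 tumors (0.10 to 0.81), with a 5-day mean of 0.45 (SE 0.06, adjusted p = 2.2e-05). It was at 0.43 at day 1 (adjusted p = 0.0231) and 0.70 at day 14 (adjusted p = 0.00886). It was the only named gene of the 10 listed neighbours of ERBB2. Its forward and dye-swap fits gave 0.60 and 0.28, so the gap between orientations was smaller than that of ERBB2.

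Of the 14 adaptors and brakes at the receptor 3 were named, GRB7, IRS1 and MUC1, with 1 higher and 2 lower in the 5-day mean. IRS1 was at -0.17 (SE 0.06, adjusted p = 0.0329) and reached -0.65 at day 14 (adjusted p = 0.0127). Its second probe gave the same 5-day mean with an adjusted p of 0.0590, and on the 22 arrays its p was 0.0715. MUC1, a mucin whose cytoplasmic tail binds ERBB receptors, was lower at day 1 (-0.69, adjusted p = 0.0114) and higher at day 14 (1.02, adjusted p = 0.00631), on opposite sides of its mean of -0.24 (adjusted p = 0.0345).

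Of 18 genes of the RAS and ERK cascade 2 were named. DUSP4, a phosphatase that removes phosphate from ERK, rose (0.57, SE 0.13, adjusted p = 0.00432), while SHOC2, a RAS-RAF scaffold, was at -0.20 (adjusted p = 0.164, and 0.0405 at -0.30 on the 22 arrays) and passed by day at day 14 (-1.03, adjusted p = 0.0239). Of 15 genes that ERK signalling is known to induce 5 were named, and they did not move one way. MYC, also of this list, stands in the paper's text among its repressed late-response genes, but no named probe matched that symbol. IER3 (1.01, SE 0.10, adjusted p = 1.19e-06) and PHLDA1 (0.44, adjusted p = 0.0010) rose. The transcription factor genes EGR3 (-0.90, SE 0.08, adjusted p = 6.95e-07) and FOS (-0.37, adjusted p = 0.0360) fell. The other FOS probes gave -0.61 (adjusted p = 0.00823) and -0.34 (adjusted p = 0.0514). BTG2, an antiproliferative gene, did not pass in the 5-day mean (0.01, adjusted p = 0.947) but did at day 1 (0.59, adjusted p = 0.0414), with a 5-day forward mean of 0.34 and a dye-swap mean of -0.36.

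Of 19 other growth factors and receptor tyrosine kinases 3 were named. FGF18, a fibroblast growth factor (0.48, SE 0.06, adjusted p = 3.72e-05), and the collagen receptor DDR1 (0.35, SE 0.04, adjusted p = 2.2e-05) rose, and both were above 0 in 16 of 16 tumors. DDR1 resembled ERBB2 in its orientations, with 0.57 on forward arrays and 0.10 on dye swaps. IGF1R, the receptor of IGF1, fell (-0.24, SE 0.07, adjusted p = 0.0125), and by day it passed only at day 14 (-0.72, adjusted p = 0.0189). The median 5-day mean over all probes was 0.01, and over the named probes it was -0.15.

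**Figure D5:**
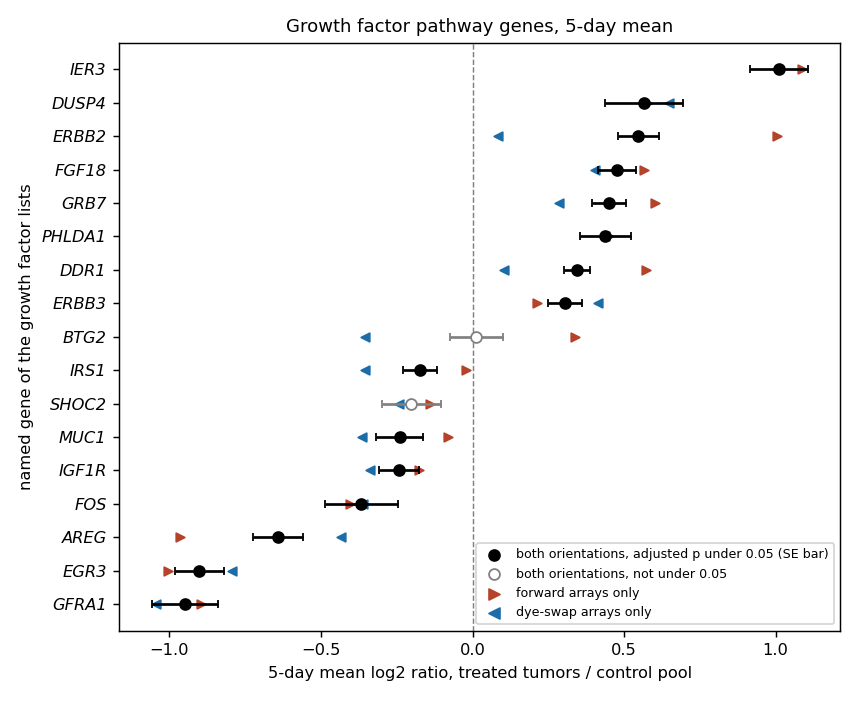
The 5-day mean log2 ratio of treated tumors over control pool for the 17 named genes of the growth factor lists, with its SE (filled black where the adjusted p is under 0.05, open grey otherwise), and the same mean from forward arrays (red, pointing right) and dye swaps (blue, pointing left). GFRA1, EGR3 and AREG are the lowest and IER3 is the highest, and the orientations of ERBB2 (1.00 and 0.084) lie far apart while those of GFRA1 (-0.90 and -1.04) nearly meet.

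Markers of cell types moved in these tumors as well, and their part in the values above was not tested. The carcinoma cells were human and the host was mouse, and which of them a marker probe read was not tested. A lower marker is therefore not a count of fibroblasts or red cells. Of 12 luminal epithelium markers 5 were named, of which CD24 (0.50) and CLDN4 (0.59, with the dye gap given above) rose and MUC1, TFF1 (-1.41) and TFF3 (-1.25) fell in the 5-day mean. Of 10 fibroblast and matrix markers FN1 (-0.21, adjusted p = 0.0245) and MGP (-0.48, adjusted p = 4.65e-05) were named and fell, to -0.61 and -1.15 at day 14, the day of the lowest GFRA1. Of 4 erythroid markers HBG1 had a probe of its own (-0.82, adjusted p = 5.5e-04), and HBA1 was named only on probes that stand for HBZ, HBA1, HBA2 and HBQ1 together (-0.70 for the brightest, adjusted p = 0.00146). Both readings fell, though at day 7 they stood at 0.09 and 0.15. None of the 6 endothelial or 6 leukocyte markers had a named probe.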

How the data were processed

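RNA of 16 tamoxifen-treated ZR-75-1 xenografts and of the E2-only pool was measured on 32 cDNA arrays of 2 colours. The deposited scanner intensity values are spot and local background brightness per channel, not corrected or normalized. The authors' log2 ratio table was made with limma (version not given in the sources used here) by background correction, loess and quantile normalization, and serves as an alternative. It holds 9928 probes (665 missing values), of which 9908 are among the 9912 of the scanner files. The correlation of the ratios used here with that table was 0.216 to 0.994 per array (median 0.866).

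Fits used limma 3.58.1 and statmod 1.5.0 (R 4.3.3). Spots marked 0 (1 to 393 per array; the meaning of the mark is not given) were left out, the background was corrected by normexp (offset 50), and loess and quantile normalization followed. The sign of dye-swap ratios was reversed and both orientations of a tumor were averaged. lmFit had 1 mean per day and the mouse as random block (correlation 0.0200), with eBayes and Benjamini-Hochberg adjustment over 9912 probes. The 5-day mean weights the days equally. The control pool is 1 sample, and tests against it leave out its own spread. Tumors of a mouse share an animal. The median signal over background per array was 2.69 to 8.03, and the number of arrays limits the precision.

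Probe names come from the study's list of 333 probes. The brightest probe stands for a gene, and members, list genes with a named probe and the 3 named genes most like each member are described. Members and lists were chosen with earlier results of these data known. Relations over mice used 100000 permutations, two-sided. Fits were tested on simulated data. Alternatives covered background, normalization, marks, dim probes, the mouse block, dyes, orientation, the doubtful array, the authors' table, array weights and each tumor left out. The array sets were found from the 100 most variable probes of the pool channel.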

Additional observations from a re-analysis of the deposited data

Results flagged for a closer look

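GFRA1 at day 14 differed from GFRA1 at days 1 to 7, by a test of that difference itself. The study had placed GFRA1 in its set 5 by its course on these same arrays, so the test is not independent support for a late fall. The log2 ratios of the 2 day 14 tumors, -2.34 and -2.71, gave a contrast of -1.97 (SE 0.31, limma adjusted p = 0.00791). Both tumors lay below all 14 earlier ones. The pool holds no control tumor of that day. Among the 9 groups of 4 tumors (3 members at days 1, 4 and 7), no tumor stood apart by Dixon's criterion, which by chance marks a small share of groups.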

How the results depend on the processing

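The 5-day means of AREG and GFRA1 kept direction and call in all 19 other settings and without each tumor in turn. AREG ranged from -1.18 to -0.43 in those settings and from -0.69 to -0.59 with a tumor left out, and GFRA1 from -1.04 to -0.80 and from -0.99 to -0.87. ERBB2 ranged from 0.49 to 0.60 with a tumor left out, and lost its call on dye swaps alone (0.084, adjusted p = 0.499).

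AREG at day 14 was 0.15 and AREG at day 14 minus days 1 to 7 was 0.73 on dye swaps alone, a turn of direction, and the difference ranged from -0.67 to -0.46 with a tumor left out. Both day 14 dye-swap spots of AREG were dim, with a pool signal of 2.12 and 3.04 times background. On the 22 arrays, which at day 14 are forward arrays, the AREG difference was -1.44, and -1.24 with a dye term, and neither passed. ERBB2 at day 14 minus days 1 to 7 was 0.042 in the authors' table, 0.51 on the 22 arrays only and 0.0082 there with a dye term, and -0.35 to 0.20 with a tumor left out. ERBB2 at day 2 was -0.0056 on dye swaps alone and on the 22 arrays only, which at day 2 are dye swaps. The GFRA1 contrast of day 14 ranged from -2.01 to -1.55, and from -2.16 to -1.79 with a tumor left out. Its F-test passed in single arrays with a dye term (5.79e-05), with array weights (0.0269) and on the 22 arrays with a dye term (0.0288), with a range of 0.00343 to 0.658 with a tumor left out. For other changes the cause was not tested.

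Of all probes, 2142 passed in the 5-day mean, 4304 on forward arrays alone and 1134 with the replicate block. For day 14 minus days 1 to 7 the count was 34, and it was 58 without background correction, 15 without normalization between arrays or with Aquantile, 207 in single arrays with a dye term, 14 on forward arrays, 17 on dye swaps, 65 in the authors' table, 272 with array weights, 53 on the 22 arrays and 17 there with a dye term. For the F-test it was 8, and 13 without background correction or with plain subtraction, 1 with 1 mean per mouse, 140 in single arrays with a dye term, 4 on dye swaps, 36 with array weights and 20 on the 22 arrays with a dye term. With a tumor left out these counts ranged from 1508 to 2299, from 1 to 61 and from 1 to 14, the lowest of the last 2 without day 14 replicate 2.

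Same-numbered tumors of different days did not deviate together (mean r = 0.01 over 24 pairs, lowest -0.17), so the numbers do not pair tumors. With the replicate block AREG, GFRA1 and ERBB2 had 5-day means of -0.79, -0.88 and 0.42, all still called. The fits on the 22 arrays were chosen after seeing the data. The scan or slide block was not run, as no batch was given. Fits to the tumors of a single day used no mouse block where its correlation could not be estimated (days 4 and 7).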
